A study of Homo sapiens with 6 samples.

Results

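Podoplanin (PDPN) and the genes of the platelet-derived growth factor (PDGF) family, PDGFA, PDGFB, PDGFC, PDGFD, PDGFRA and PDGFRB, were described from a table of methylated regions of M07e cells. The regions taken are those that overlap the RefSeq span of 1 of these 7 genes or lie within 10 kb of it, which gave 35 of the 35130 regions of the table. All 7 genes had at least 1 region. PDGFA had 11, PDGFB 9, PDGFRA 6, PDPN 3, PDGFD 3, PDGFRB 2 and PDGFC 1, and 26 of the 35 overlapped their gene. The genes were picked because earlier results of these data showed large losses at PDPN and PDGFA, so their differences are a description and no test is made of them.

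M07e is an established human line of acute megakaryoblastic leukemia, grown here with fetal bovine serum and the growth factor GM-CSF. The control group (genotype WT) and the group with a CRISPR knockout of DNMT3B had 3 libraries each. DNMT3B is an enzyme that adds methyl groups to unmethylated CpG sites. The assay was reduced representation bisulfite sequencing, which reads fragments that the enzyme MspI cuts out at CCGG. The labels do not say whether the 3 knockout libraries are 1 clone or several, nor whether replicates came from separate cultures.

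Every level, difference and q below is a value of the authors' deposited table, which holds 1 mean per group and region, so the depth behind a level and the spread between libraries are unknown. A level is the percent methylation of a region, and a difference is the M07e_3883 mean minus the M07e_WT mean, in percentage points, which the filed differences match within 0.01 points in all 35 regions. M07e_WT is the control. No label uses the name M07e_3883, which was read as the knockout because it is the only other genotype, and every direction rests on that reading. A region was called where the authors' q was under 0.01 and the difference at least 25 points in either direction. What the authors' tests took as points is not stated, so their q-values give no measure of how libraries varied. Methylation of a pooled culture shows neither expression nor cell type, so the cell type label could not be checked against markers.

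Podoplanin is a small mucin-like membrane glycoprotein of lymphatic endothelium, stromal cells and some tumors. It binds CLEC-2, a receptor on platelets and megakaryocytes, and so makes platelets aggregate. PDGFs are dimeric growth factors for mesenchymal cells, and platelets store and release them from alpha granules. The A and B chains are secreted in active form, while the C and D chains must first lose an inhibitory domain. The A, B and C chains act on the receptor tyrosine kinase PDGFRA, and the B and D chains on PDGFRB.

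To set the measured regions beside the sequence of the start sites, 4 stretches of 250 bases that end just before a RefSeq start site are printed (GRCh38.p14, 5′ to 3′). Entries matched for 5 of the 7 genes, all but PDGFB and PDGFC. Capitals mark CG dinucleotides in the PDPN, PDGFA and PDGFRB sequences, and the bases of a measured region in the PDGFD sequence.
PDPN, plus strand, chr1:13583507-13583756: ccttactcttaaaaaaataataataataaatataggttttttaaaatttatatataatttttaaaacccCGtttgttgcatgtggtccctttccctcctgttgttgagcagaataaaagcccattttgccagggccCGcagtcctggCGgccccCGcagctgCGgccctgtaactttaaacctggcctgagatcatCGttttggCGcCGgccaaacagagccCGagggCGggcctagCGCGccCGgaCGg
PDGFA, minus strand, chr7:520701-520950: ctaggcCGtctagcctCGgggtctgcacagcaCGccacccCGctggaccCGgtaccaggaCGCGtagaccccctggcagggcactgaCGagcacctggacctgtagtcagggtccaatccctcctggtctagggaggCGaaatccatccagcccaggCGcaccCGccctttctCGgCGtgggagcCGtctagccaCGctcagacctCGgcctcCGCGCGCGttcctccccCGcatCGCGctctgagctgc
PDGFD, minus strand, chr11:104164148-104164397: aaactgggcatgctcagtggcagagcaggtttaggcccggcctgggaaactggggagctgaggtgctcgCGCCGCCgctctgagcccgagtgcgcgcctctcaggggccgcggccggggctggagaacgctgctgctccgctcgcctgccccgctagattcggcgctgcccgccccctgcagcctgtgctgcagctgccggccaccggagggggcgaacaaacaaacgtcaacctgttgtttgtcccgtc
PDGFRB, minus strand, chr5:150155846-150156095: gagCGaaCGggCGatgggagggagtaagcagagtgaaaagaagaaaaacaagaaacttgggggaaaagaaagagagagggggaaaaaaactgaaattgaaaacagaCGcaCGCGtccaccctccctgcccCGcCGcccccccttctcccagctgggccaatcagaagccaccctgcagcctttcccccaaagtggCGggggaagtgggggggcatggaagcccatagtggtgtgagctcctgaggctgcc
The PDPN stretch held 14 CG dinucleotides, most of them in its part nearest the start site, and 2 MspI sites (CCGG, its own reverse complement, each also holding a CG). The PDGFA stretch held 23 CG and 1 CCGG, the PDGFD stretch 23 CG and 4 CCGG, and the PDGFRB stretch 9 CG and no CCGG. The stretches before the other start sites of PDGFA, not printed, held 17 to 40 CG and 3 to 8 CCGG. Over all 35116 such stretches of the RefSeq table the median was 11 CG, and 58.5% held CCGG. Of the 4 printed stretches, the PDGFD one held a measured region.

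The letters also bear on how the table counts. In all 2489 regions that lie inside a RefSeq promoter window, both ends fall on a base of a CG dinucleotide when the coordinates are read 1 base higher than filed, against 962 (38.7%) as filed. The number of sites never exceeded the number of CG bases counted on both strands, and in 1886 regions (75.8%) it exceeded the number of CG dinucleotides. It equalled the number on both strands in 1409 regions (56.6%). A site is therefore read as 1 strand of a CG, and 10 sites can be as few as 5 dinucleotides. How many dinucleotides a given count covers is not fixed for each region. The PDGFD region printed in capitals covers 7 bases (positions 70 to 76 of the stretch) that hold 5 such bases, equal to the 5 sites of the table. Coordinates below are as filed, written 1-based on hg38, and the printed capitals include the shift.

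Of the 35 regions 5 (14.3%) were called in the authors' deposited table, 4 lower and 1 higher in M07e_3883, beside 6.74% of all regions, 2.17% lower and 4.57% higher. The lower regions lay at PDPN, PDGFA (2) and PDGFC, and the higher region lay at PDGFB. PDGFD and both receptor genes had none. The 7 genes were chosen on this same contrast, so nothing is read from the difference between these shares. Over the 35 regions the median difference was 3.30 points, with 19 higher and 16 lower, and over the whole table it was 17.4 points, with 68.4% higher. The median of the 35 depends on which regions enter: it was 10.5 points over the 26 that overlap a gene, 13.5 points within 50 kb, and -0.33 points without 3 regions at 0% in the control. The 35 regions had the same median of 6 sites as the whole table but were shorter, with a median of 38 against 57 bases. They had 15.6 against 12.7 sites per 100 bases, and a median M07e_WT level of 18.5% against 7.59%.

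**Figure D1:**
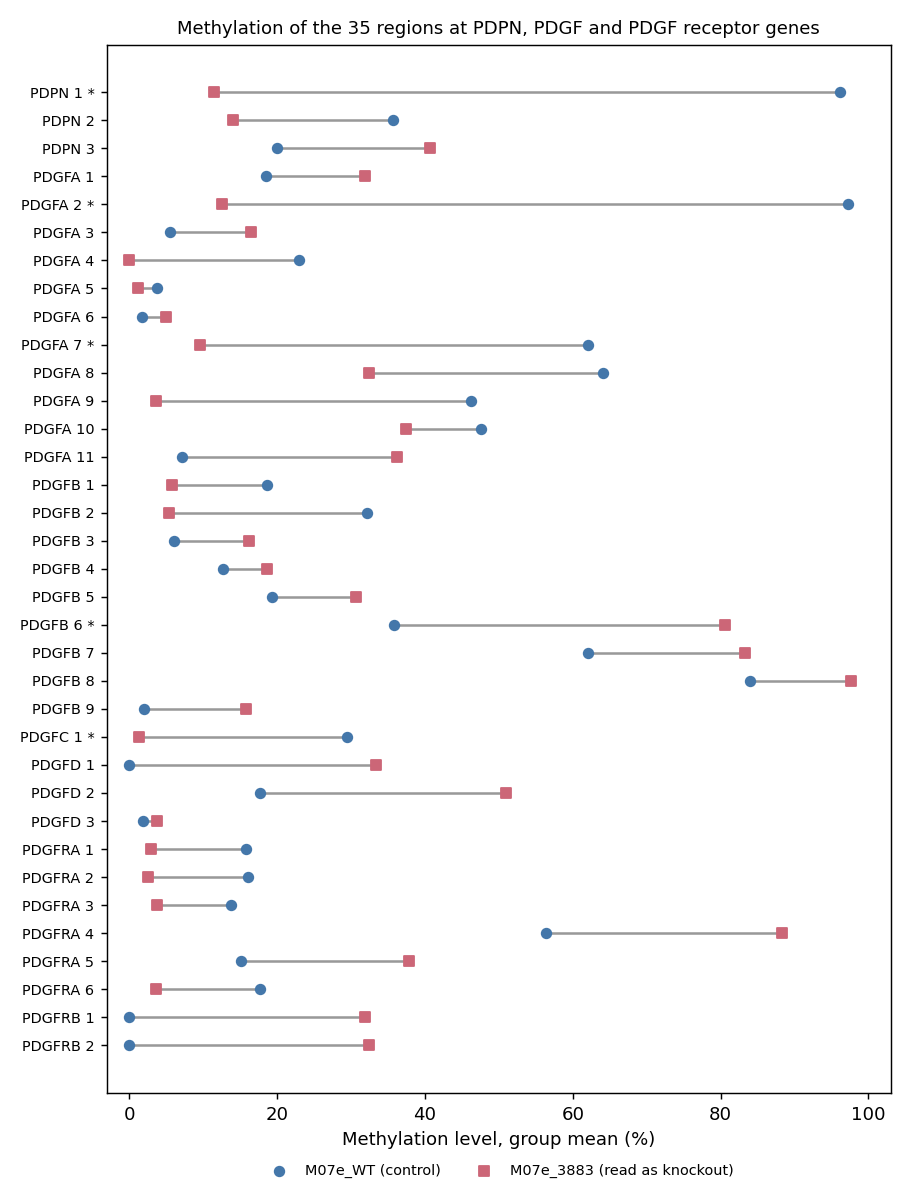
Methylation level (%) of each of the 35 regions in M07e_WT (circles) and M07e_3883 (squares), 1 group mean each with no replicate error, numbered along each gene by ascending position; an asterisk marks the 5 called regions. The longest lines are those of PDPN (96.1% to 11.4%) and PDGFA (97.2% to 12.5%), both leading from right to left.

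PDPN had 3 regions, all within 1 kb of its first start site (13583757), and the outermost of them had the largest loss among the 762 called losses of the authors' deposited table. That region, chr1:13583152-13583181 with 10 sites in 30 bases, lay 576 bases before the start site and had 96.1% methylation in M07e_WT and 11.4% in M07e_3883, a difference of -84.72 points (q = 2.48e-09). Among all 35130 regions 1 other region, not called, had a larger loss. Only 15 bases further toward the gene, chr1:13583197-13583303 (6 sites) had 35.7% in M07e_WT and 14.1% in M07e_3883, and its difference of -21.64 points was not called (q = 0.759). The neighbours were thus close to each other in M07e_3883 and far apart in M07e_WT. The third region, chr1:13584263-13584291 (5 sites), lies inside the gene, 431 bases past the nearest start site (13583832). It went the other way, with 20.0% in M07e_WT and 40.7% in M07e_3883, and was not called (q = 0.475). The PDPN stretch printed above lies between the second and the third region and held no measured region. No other part of the 34.2 kb gene had one either.

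PDGFA encodes the A chain. Its 11 regions run from 3038 bases beyond the lower end of the gene, which is its 3′ end since the gene is on the minus strand, to 9582 bases before its outermost start site (520700). Of these, 7 were lower and 4 higher in M07e_3883 in the authors' deposited table, with a median difference of -10.06 points. The second-largest called loss of the whole table lay deep in the gene. That region, chr7:501155-501224 (8 sites in 70 bases), is 3897 bases from the 3′ end and 17105 bases past the nearest start site. It had 97.2% methylation in M07e_WT and 12.5% in M07e_3883 (difference -84.70 points, q = 2.07e-07). The next region, 5570 bases closer to the start sites, had 5.56% in M07e_WT and 16.5% in M07e_3883 (q = 0.759), so the high control level did not extend to it.

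Around the start sites of PDGFA, 3 neighbouring regions had intermediate levels in M07e_WT and lower ones in M07e_3883. The called one, chr7:519149-519161 with 7 sites in 13 bases, lies 685 bases past the start site at 519846 and had 62.1% in M07e_WT and 9.52% in M07e_3883 (difference -52.54 points). Its q of 0.00923 was just under the threshold. With Benjamini-Hochberg adjustment over all regions, the adjusted p was 0.0303 from the authors' Kolmogorov-Smirnov p and 0.0146 from their Mann-Whitney p, both above 0.01. On the other side of the outermost start site, chr7:521495-521523 (8 sites) had 64.1% and 32.4% (q = 0.478), and chr7:522787-522816 (5 sites) had 46.3% and 3.56% (q = 0.0762). These 2 regions also lie inside PDGFA-DT, the divergent long noncoding RNA gene of this locus. RefSeq also lists LOC105379749, a long noncoding RNA gene, over all 3 regions and 4 others of PDGFA, but the promoter table held no entry to check its position. All 3 regions had lower levels in M07e_3883, and 1 of them, the one inside PDGFA, was called.

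The other 6 regions of PDGFA were not called. A pair of adjoining regions inside the gene (chr7:513766-513785 and chr7:513786-513841) was nearly unmethylated in both groups, at 3.79% and 1.70% in M07e_WT and 1.22% and 5.0% in M07e_3883. The region at chr7:510112-510146 had 22.9% in M07e_WT and 0% in M07e_3883. There the authors' tests differed, with a Mann-Whitney p of 0.00174 and a Kolmogorov-Smirnov p of 1. Among the 35 regions, each one with a group mean of 0 had that same Kolmogorov-Smirnov p, and none of them was called. Nothing is therefore read from the absence of a call at this region. The outermost region upstream, chr7:530282-530399 (17 sites), was higher in M07e_3883 (36.2% against 7.11%, q = 0.0612), and it is the region closest to the 10 kb limit on the inside. The first region beyond that limit, 12711 bases away, had 51.1% against 22.2% (q = 0.122).

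**Figure D2:**
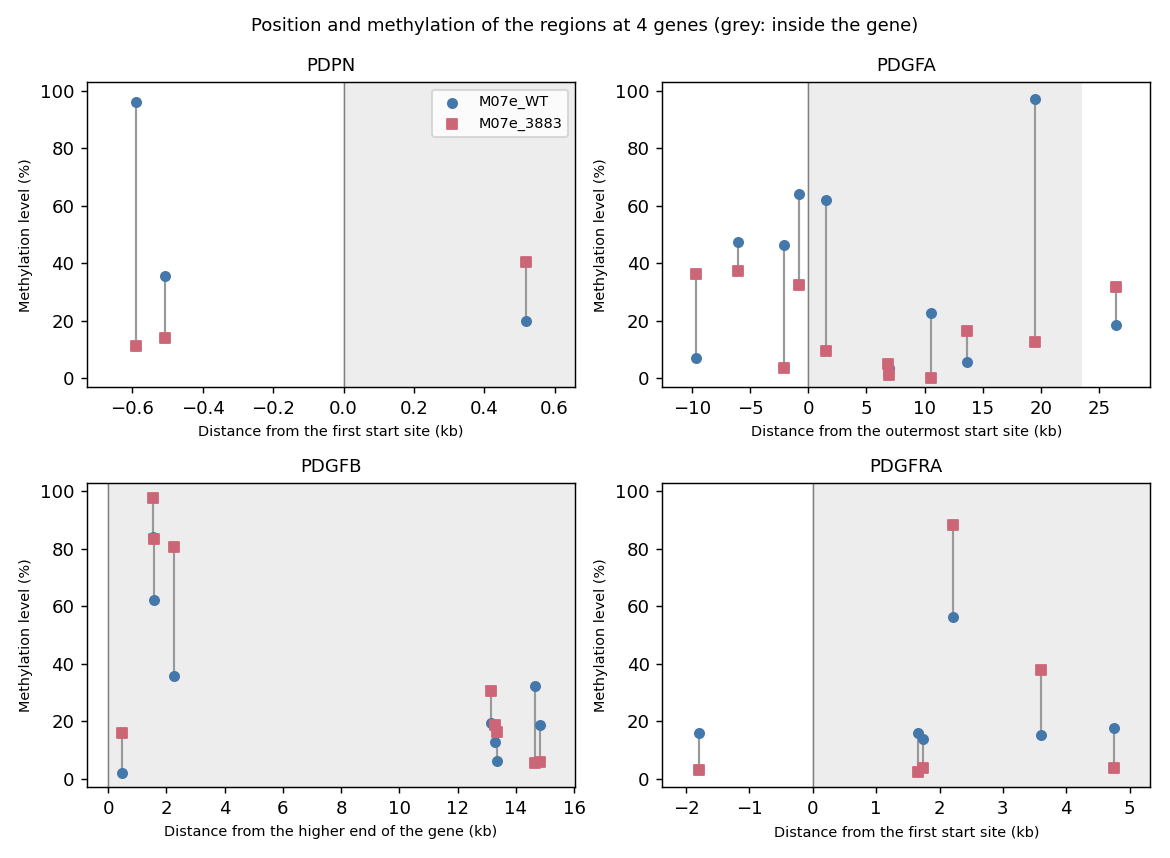
Methylation level (%) of the regions at PDPN, PDGFA, PDGFB and PDGFRA against distance in kb from the outermost start site, or for PDGFB from the higher-coordinate end of the gene (circles M07e_WT, squares M07e_3883, 1 mean per group, grey inside the gene). At PDGFA the regions within about 2 kb of position 0 and the region deep in the gene have the circle above the square, while at PDGFB the regions with levels over 80% have the square on top.

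PDGFB encodes the B chain, the cellular counterpart of the viral oncogene v-sis. Of its 9 regions 7 were higher in M07e_3883 and 2 lower in the authors' deposited table, with a median difference of 11.3 points, against the -10.06 points of PDGFA. All 9 overlap the gene. The called region, chr22:39242704-39242727 (5 sites in 24 bases), is 2255 bases inside the higher-coordinate end and had 35.8% methylation in M07e_WT and 80.7% in M07e_3883 (difference 44.86 points, q = 0.000321). The regions chr22:39243404-39243433 (62.1% and 83.3%, q = 0.759) and chr22:39243434-39243447 (84.0% and 97.7%, q = 0.203) follow 676 bases later. These 3 form the most methylated stretch of the gene in both groups, and M07e_3883 was higher in each. Beyond them, chr22:39244238-39244783, 199 bases inside the same end, was low in both groups (1.94% and 15.8%, q = 0.476).

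Toward the other end of PDGFB, 5 regions had low to moderate levels and none was called. Of these, 3 separated by gaps of 3 and 10 bases (chr22:39231597-39231663, 39231667-39231740 and 39231751-39231900) had 6.10%, 12.7% and 19.3% in M07e_WT and 16.2%, 18.7% and 30.7% in M07e_3883. Their levels ascend in the same order in both groups. The other 2, chr22:39229990-39230290 and chr22:39230300-39230338, were lower in M07e_3883, at 18.7% and 32.1% in M07e_WT against 5.71% and 5.33% (q = 1 for both). The RefSeq promoter table matched no entry for PDGFB, so distances to its start sites are not given.

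PDGFC, which encodes a chain that must be cut to become active, had 1 region over its 211 kb. The region, chr4:156971750-156971760 with 6 sites in 11 bases, lies 39 bases inside the higher-coordinate end of the gene. In the authors' deposited table it had 29.5% methylation in M07e_WT and 1.32% in M07e_3883, a difference of -28.15 points (q = 0.000134). It was called with the smallest difference of the 5, about 3 points past the threshold, and ranked 685 by size among the 762 called losses. PDGFD, which encodes the other chain of that kind, had 3 regions over 257 kb, all higher in M07e_3883 and none called. The one before the start site, printed in capitals above (chr11:104164321-104164327), was nearly unmethylated in both groups, at 1.83% in M07e_WT and 3.74% in M07e_3883 (q = 1). A region 543 bases past the start site, chr11:104163511-104163604 (6 sites), had 17.7% and 51.0%, a difference of 33.30 points with q = 0.0260. The third, chr11:104036709-104036781, also overlaps DDI1, a gene that lies within the span of PDGFD, and had 0% and 33.3% (q = 1).

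The receptor genes had no called region in the authors' deposited table. At PDGFRA, which encodes the alpha receptor, 6 regions lay between 1792 bases before the first start site (54229293) and 73 bases past the second (54233960). The 4 lower ones formed a uniform group, with 13.7% to 17.7% methylation in M07e_WT and 2.48% to 3.79% in M07e_3883. Their differences ran from -14.06 to -9.93 points, below the 25 points required, with q from 0.0763 to 1. Between them lay 2 regions that were higher in M07e_3883. The region chr4:54231492-54231524 (8 sites) had 56.4% in M07e_WT and 88.3% in M07e_3883 (q = 0.0844), and chr4:54232891-54232913 (5 sites) had 15.2% and 37.9% (q = 0.0260). So the regions before and after differed from them in direction within less than 7 kb. The 250 bases before the first start site of PDGFRA held 8 CG and no CCGG, and those before the second 25 CG and no CCGG. No region was measured in either stretch.

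PDGFRB encodes the beta receptor, and both of its regions lay inside the gene, 11890 and 22990 bases past the start site (150155845). In the authors' deposited table chr5:150143918-150143955 had 0% methylation in M07e_WT and 32.4% in M07e_3883, and chr5:150132762-150132855 had 0% and 31.9%. Both had q = 1. Together with the DDI1 region of PDGFD, these are 3 of the 35 regions with a control mean of exactly 0 and a M07e_3883 mean between 25% and 33.3%. Such regions made up 21.0% of the table, and none of these 3 was called. Leaving out every region with a group mean of 0 left 31 of the 35 regions and the same 5 calls. That could not have come out otherwise, since none of the regions left out was called, so it is no check of the calls. Each of those regions also had the same Kolmogorov-Smirnov p, as given for PDGFA above. Nothing is read from the absence of a call at these 3. The level that 1 library at 100% and 2 at 0% would give lies at the upper end of the range of 25% to 33.3%. Whether the 3 libraries differed in this way was not tested.

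**Figure D3:**
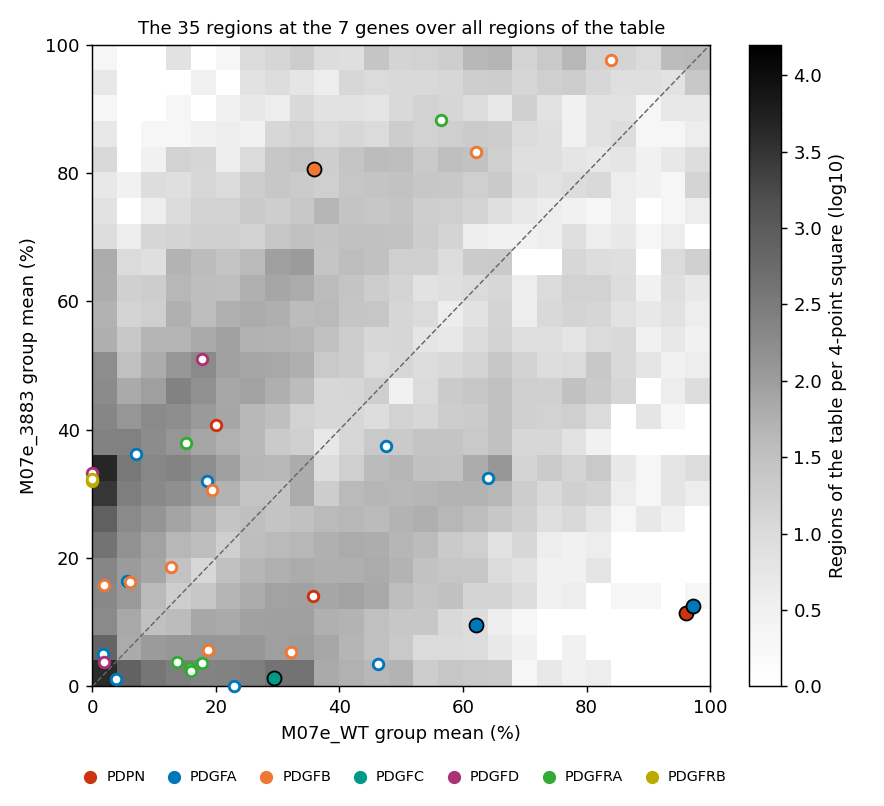
M07e_3883 mean against M07e_WT mean (%) of the 35 regions, coloured by gene, filled and outlined in black where called, over the number of regions of the whole table per 4-point square (grey, log10 scale; the dashed line marks equal levels). The largest losses of PDPN and PDGFA sit at the lower right, where the table holds few regions, and both PDGFRB regions sit on the left edge among the darkest squares.

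Of the 35 regions 14 (40%) differed by at least 25 points, against 52.0% of the whole table, and 9 of the 14 were not called. Those 9 were 3 at PDGFA, 1 at PDGFB, 2 at PDGFD, 1 at PDGFRA and 2 at PDGFRB. Of all regions that differed by at least 25 points, 15911 of 18279 were not called, so nothing about these genes is read from the 9 of 14. Among the 14 regions, the size of a difference and its q did not give the same order. At PDGFA a difference of -42.73 points had q = 0.0762, and at PDGFC a difference of -28.15 points had q = 0.000134, with 5 and 6 sites.

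For each called region the 3 called regions of the authors' deposited table with the most similar pair of group means were named, as a description over 2 means. Only regions inside or within 10 kb of a protein-coding gene were used, and the 35 regions themselves were left out, so that the near-equal pairs of PDPN and PDGFA do not name each other. The regions at PDPN and PDGFA (chr7:501155-501224) had the same 3 neighbours, at SPTBN4 (96.1% in M07e_WT and 16.4% in M07e_3883), CRTAC1 (89.5% and 14.8%) and MACF1 (92.5% and 18.2%). SPTBN4 lay 5.01 points from the PDPN pair and 4.08 points from the PDGFA pair, and the other neighbours lay 7.39 to 8.06 points away. The second PDGFA region lay within 1 point of regions at ADAMTS2, ACP6 and HES5. The PDGFB region was nearest to regions at ING1 (35.5% and 81.9%), SDC3 (36.5% and 81.9%) and DPEP3 (34.4% and 80.8%). The PDGFC region was nearest to regions at C1QTNF8 (29.4% and 1.24%), PMM1 (29.2% and 1.53%) and FOXK1 (30.0% and 2.15%).

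Genes that act with podoplanin and the PDGFs were counted over a list of 62 genes by the same 10 kb rule. The list was chosen with earlier results of these data known, among them those at SRC and THBS1. Of the 62 genes 46 had a region, 119 in all, and 11 of these regions (9.24%), at 11 genes, were called in the authors' deposited table, 3 lower and 8 higher in M07e_3883, beside 6.74% of all regions (2.17% lower and 4.57% higher). The median difference over the 119 regions was 3.28 points, against 17.4 points over the whole table. None of the 119 was among the 35 regions described above.

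The counts of the subgroups are small and are given beside the same 6.74%, with nothing read from them. Among the partners of podoplanin, 1 of 20 regions (5%) was called. It lay at CD9, a tetraspanin of platelets that binds podoplanin, 46 bases before a start site, and had 38.4% in M07e_WT and 94.4% in M07e_3883 over 19 sites (q = 1.81e-07). Of the 33 regions at genes of PDGF processing, binding and co-receptors 1 (3.03%) was called, inside LRP1, an endocytic receptor that associates with PDGFRB (12.6% and 73.4%, q = 0.00684). Of 32 regions at receptor signalling genes 3 (9.38%) were called. A region 644 bases from SRC, a kinase that binds activated PDGF receptors, had 11.1% and 91.1% (q = 3.08e-06). A region 593 bases before CRK, an adaptor gene, had 13.5% and 53.5% (q = 0.00334), and one inside SHB, another adaptor gene, was lower, with 65.0% and 14.5% (q = 0.000685).

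The receptors and ligands related to the PDGF system, such as the FLT3, KIT and VEGF families, had 5 called among 23 regions (21.7%, beside 6.74% of all regions), 4 higher and 1 lower. The lower one lay 262 bases before the start site of FLT3, a receptor kinase of blood progenitors, with 34.8% in M07e_WT and 4.2% in M07e_3883 (q = 3.93e-07). The called regions at ligand genes were those at FLT3LG and KITLG, both higher, and uncalled regions at ligand genes are not described. FLT3LG had 32.7% and 92.0% (676 bases from the gene, q = 0.00637). KITLG, the ligand of KIT, had 14.4% and 63.3% (219 bases before a start site, q = 0.00150). The called regions at the VEGF receptor genes FLT4 (24.8% and 68.1%, q = 0.00244) and FLT1 (12.5% and 41.8%, q = 0.00137) were also higher. Of 11 regions at platelet granule protein genes 1 (9.09%) was called, at THBS1, which encodes thrombospondin 1, 105 bases past a start site (40.7% and 5.75%, q = 0.000344).

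**Figure D4:**
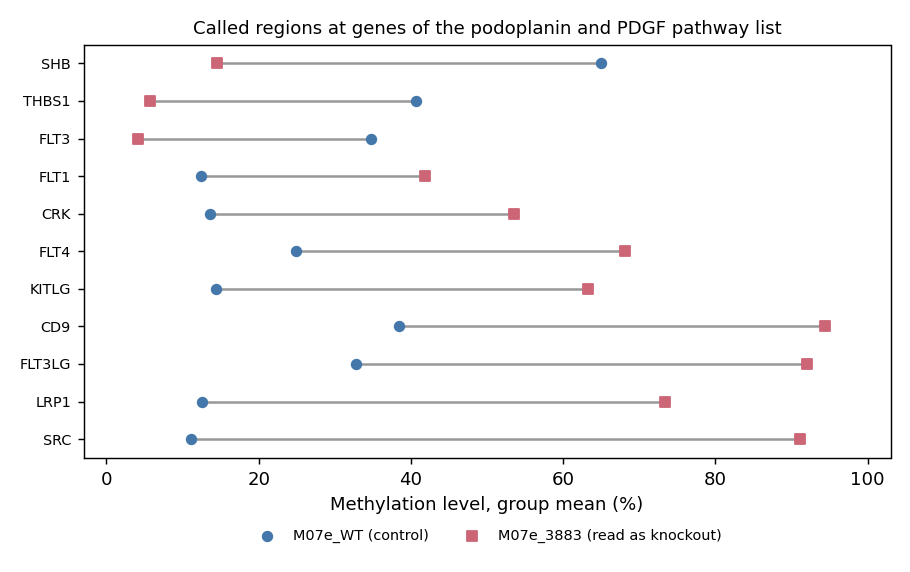
Methylation level (%) in M07e_WT (circles) and M07e_3883 (squares) of the 11 called regions at genes of the podoplanin and PDGF list, 1 mean per group, ordered from the largest loss at the top to the largest gain at the bottom. SHB, THBS1 and FLT3 have the square on the left, and the other 8 have it on the right.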

How the data were processed

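Reduced representation bisulfite libraries of M07e cells, 3 control and 3 DNMT3B knockout, were summarised by the authors in 1 table of 35130 regions. Per the submitters' processing notes, FastQC, Trimmomatic, Bismark, HISAT2, methylKit and the build hg38 were used, but which program made the regions is not stated there. Per the file headers, the deposited table holds a methylation percent per group, a difference of the 2 means (used here as a signed score in percentage points), a count of CpG sites, and p-values and a q-value from the authors' own tests. It has no value per library and no coverage, so the depth is unknown and no test between libraries was made.

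Regions were assigned to every gene whose RefSeq span (GRCh38.p14) they overlap or lie within 10000 bases of. The members and lists were chosen with earlier results of these data known. The named genes were the 7 members, every gene of the list with a called region (at most 20), and the 3 nearest called regions by Euclidean distance of the group means. For the last, only protein-coding genes whose span the RefSeq promoter table also places were used. Alternatives changed the thresholds, the p-value, the distance, the sites required and the handling of means of 0. Distances and calls were tested on simulated data. Python 3.11.15, pandas 2.3.3 and numpy 2.4.6 were used.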

Additional observations from a re-analysis of the deposited data

How the results depend on the processing

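No paired analysis was possible because the table holds 1 mean per group, and for the same reason no library could be left out. The largest losses at PDPN and PDGFA stayed called under every alternative run that kept them: the PDPN region lies outside the gene span and the PDGFA region has 8 sites, so each dropped out of 1. Of the called regions, the second PDGFA region was not called at q under 0.001 or with either Benjamini-Hochberg adjusted p, and the PDGFC region not at 40 points. With at least 10 sites 4 regions remained, with 1 called (PDPN), 1 lower and 0 higher, in 1 gene. At q under 0.05, 2 regions were called higher, the second being the PDGFD region past the start site. The median difference was 10.5 points over regions that overlap a gene, 13.5 within 50 kb, 10.7 with at least 10 sites and 1.91 without regions that have a group mean of 0. It was -0.33 without the 3 regions at 0 in the control and 25% to 33.3% in M07e_3883, an alternative chosen after seeing the data. The causes of these shifts were not tested, except that each alternative uses fewer or more regions. Of the list of 62 genes, 7 regions were called at 40 points, 5 at q under 0.001 and 7 with the adjusted Kolmogorov-Smirnov p. By choice of regions, 6 of 79 that overlap a gene were called, 22 of 250 within 50 kb and 5 of 17 with at least 10 sites. The share over all regions is not given for these settings, here or for the 35 regions, so nothing is read from the counts. The depth is unknown and 4 of the 35 regions had at least 10 sites, so the precision of a level cannot be stated.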

Other observations

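Between 10 and 50 kb from the 7 genes the table held 23 regions, 15 of them around PDGFA. None was called, beside 6.74% of all regions. Of the 23, 8 were at 0% in M07e_WT and between 25% and 33.3% in M07e_3883, and nothing is read from the absence of a call. In 1 of the 23, a region of 1 site near PDGFB, the filed difference does not match the filed means. Beyond the higher-coordinate end of PDGFA, the table held 9 of these regions, the first of them already named above, and all 9 were higher in M07e_3883, by 26.04 to 36.95 points. Their median level was 4.29% in M07e_WT and 33.3% in M07e_3883, and 4 of them were at 0% in M07e_WT and between 25% and 33.3% in M07e_3883. Beyond the lower end, 4 of 6 regions were higher and 2 lower. Within 10 kb of PDGFA 4 of 11 regions were higher, and 68.4% were over the whole table. No test of these differences was made.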
